A study of Mus with 4 samples.

Results

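The genes described here are 30 genes of the contractile apparatus of skeletal muscle and of the proteins that serve it. They were followed in the m6A peak lists of interscapular brown adipose tissue (iBAT). The genes were chosen by symbol, with earlier results on these lists known, and every listed peak assigned to one of these symbols was taken. Of the 30 genes, 23 had at least 1 peak, with 10 peaks in the control list and 35 in the knockout list. In all, 10105 gene symbols had a listed peak, and the lists held 18400 control and 18693 knockout peaks.

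The m6A RNA immunoprecipitation sequencing (MeRIP-seq) comprised 4 samples of C57BL/6 mice on normal chow at 8 weeks of age, an immunoprecipitate (IP) and its input for each genotype. The controls were Wtap flox/flox mice, whose *Wtap* alleles are floxed and which carry no Cre. The knockouts were Wtap flox/flox mice with UCP1-iCre, called *Wtap*-BKO, in which Cre is made from the *Ucp1* gene, so that *Wtap* is deleted in brown adipocytes and the other cells of the tissue keep it. Each sample was pooled from 8 mice, so there is 1 pool per genotype, no replicate spread and no test between genotypes. A peak marks exonic sequence where the IP exceeded its input, and whether it is listed depends on both the methylation and the amount of the transcript. Read totals are not given with the peaks, so depth is unknown. From a bulk pool, fewer muscle cells, less transcript per cell and less methylation cannot be told apart. *Wtap* itself had 4 peaks in each list. Peaks give no expression level, so this does not check the labels.

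In a muscle fibre, thick filaments of myosin slide along thin filaments of actin within a repeated unit, the sarcomere, which is bounded by Z discs and spanned by titin. Calcium released from the sarcoplasmic reticulum binds troponin on the thin filament, tropomyosin shifts, and myosin can then pull. Brown adipocytes share a developmental origin with skeletal muscle but do not build sarcomeres. Blood vessels within the tissue hold smooth muscle, which also makes desmin and β-tropomyosin. m6A is laid down on messenger RNA by a complex of METTL3 and METTL14 that WTAP holds in nuclear speckles.

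The muscle genes were listed far more often in the *Wtap*-BKO list. Peaks in both lists were found for 9 genes (*Myh4*, *Myl1*, *Mylpf*, *Acta1*, *Tpm2*, *Tcap*, *Ldb3*, *Des* and *Atp2a1*), and 14 had peaks in *Wtap*-BKO only. None (0) had a peak in Wtap flox/flox only. Over all 10105 gene symbols, 13.2% had a peak in *Wtap*-BKO only and 13.5% in Wtap flox/flox only. The genes were chosen with these lists in view, so the counts are a description and are not evidence of their own direction. Peaks covered 1739 exonic bases on these genes in the Wtap flox/flox list and 7880 in the *Wtap*-BKO list. For the whole lists the sums went the other way, from 5786750 bases in Wtap flox/flox to 5250521 in *Wtap*-BKO. The remaining 7 genes had no listed peak in either genotype. They were *Mybpc2*, *Neb*, *Actn3*, *Myoz1*, *Ryr1*, *Ckm* and *Eno3*.

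**Figure D1:**
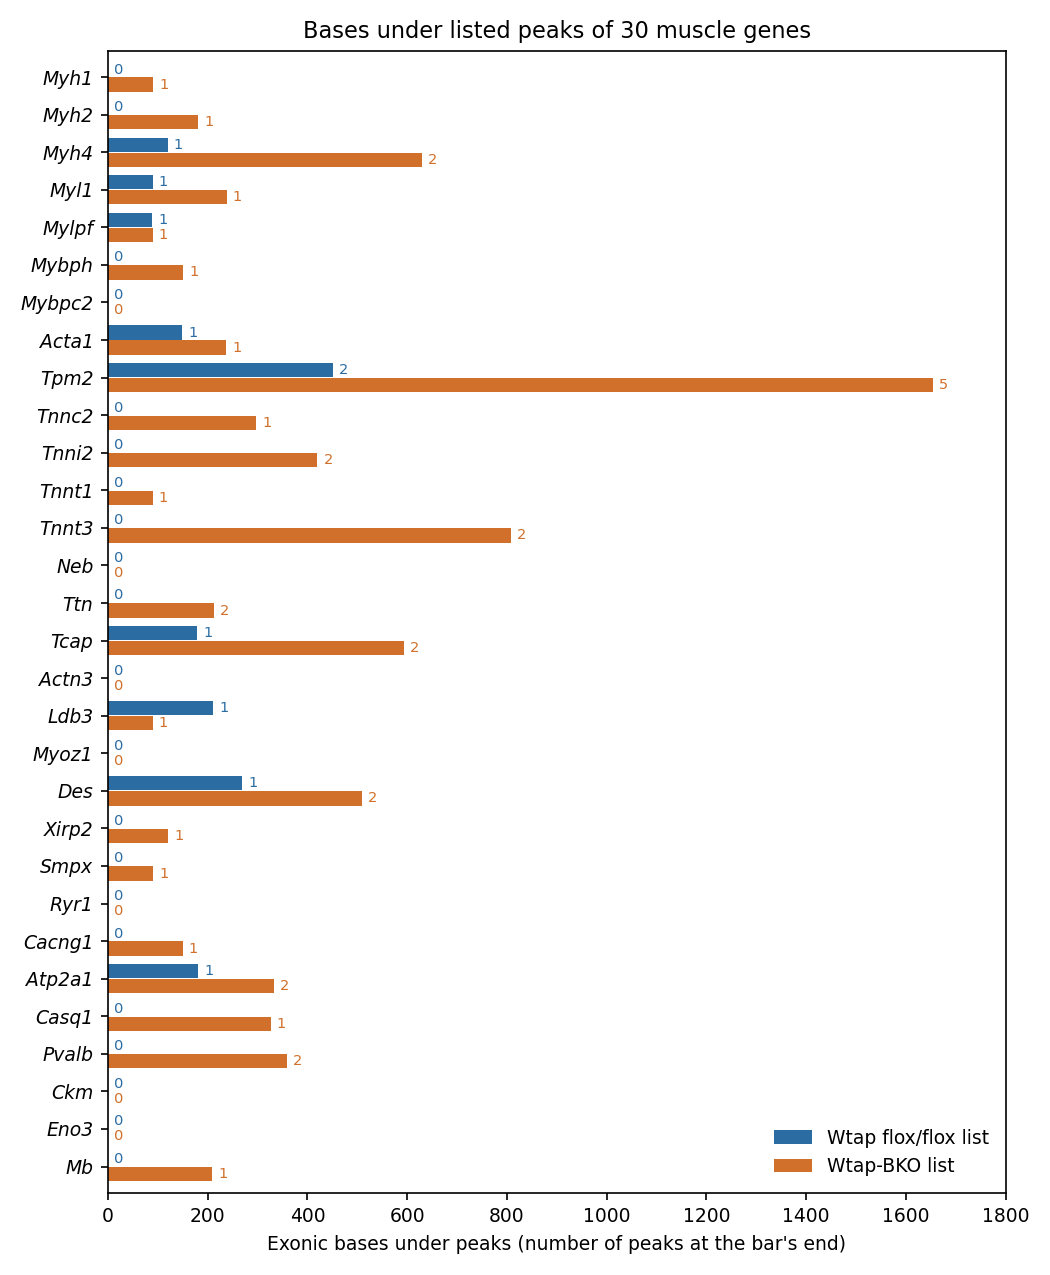
Exonic bases under listed peaks for each of the 30 genes (horizontal bars, starting at 0), with the number of peaks at the end of each bar, for the Wtap flox/flox list (blue) and the *Wtap*-BKO list (orange), 1 pool each. *Tpm2* goes from 451 bases in Wtap flox/flox to 1654 in *Wtap*-BKO, and *Ldb3* is the only gene whose Wtap flox/flox bar is the longer.

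The myosin heavy chains are the motors of the thick filament, and *Myh1*, *Myh2* and *Myh4* encode the fast types of adult muscle. They lie next to each other on chromosome 11 (plus strand, build GRCm38) and are close copies, so reads may be shared between them. *Myh4* (ENSMUSG00000057003) had 1 Wtap flox/flox peak of 120 bases, chr11:67251828-67251947, with a fold enrichment of IP over input of 3.32 and a log10 false discovery rate (FDR) of −2.04. The *Wtap*-BKO peak chr11:67251708-67252240 contained all 120 bases of it within 300 exonic bases, with 4.55-fold enrichment and a log10 FDR of −9.17. A further *Wtap*-BKO peak of 330 bases in 3 blocks lay 1361 bp from the 3′ end of *Myh4*, chr11:67258828-67259345, with no Wtap flox/flox peak on it. Its log10 FDR was −7.55. *Myh2* (ENSMUSG00000033196) had a single *Wtap*-BKO peak of 181 bases, chr11:67189610-67190388. *Myh1* (ENSMUSG00000056328) had a single *Wtap*-BKO peak of 91 bases, chr11:67222246-67222455. These peaks were weak, with log10 FDRs of −2.32 and −1.92, although their fold enrichments were 12.9 and 11.4. Of the 3 motors, *Myh4* thus carried the only strong peaks.

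The myosin light chains brace the lever arm of the motor. *Myl1* (ENSMUSG00000061816, minus strand of chromosome 1), the essential light chain of fast fibres, had a peak of 90 bases in Wtap flox/flox, chr1:66944872-66944961, with a log10 FDR of −2.35. In *Wtap*-BKO the peak was 238 bases long, chr1:66944813-66945050, held all 90 of these bases and had a log10 FDR of −16.4. *Mylpf* (ENSMUSG00000030672, plus strand of chromosome 7), the regulatory light chain of fast fibres, differed from it. Its Wtap flox/flox peak, chr7:127212700-127212941, covered 89 bases and its *Wtap*-BKO peak, chr7:127211696-127212700, covered 90, and they met in 1 base only. Their log10 FDRs were −2.24 and −2.31. *Mylpf* is therefore a gene with peaks in both lists that lie side by side, not on the same stretch.

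Of the myosin-binding proteins, *Mybpc2* (fast myosin-binding protein C) had no peak. *Mybph* (myosin-binding protein H, ENSMUSG00000042451, plus strand of chromosome 1) had 1 *Wtap*-BKO peak of 151 bases, chr1:134200575-134200725, with 1.87-fold enrichment and a log10 FDR of −5.46. On 147 of these bases lay a *Wtap*-BKO peak of *Adora1*, an adenosine receptor gene on the opposite strand, with 1.89 and −5.37. The labels do not state that the library kit kept the strand, so to which gene these reads belong cannot be told apart.

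The thin filament genes held the strongest muscle peak of each list, both on *Tpm2*. *Tpm2*, β-tropomyosin (ENSMUSG00000028464, minus strand of chromosome 4), had 2 peaks in the control list and 5 in *Wtap*-BKO. The stronger Wtap flox/flox peak, chr4:43522770-43523510, covered 301 bases with 49.5-fold enrichment and a log10 FDR of −35.5. The weaker, chr4:43519407-43519660, covered 150 bases with 2.94 and −2.97. Both lay wholly within a single *Wtap*-BKO peak, chr4:43519078-43523510, of 720 exonic bases in 6 blocks, with 7.15 and a log10 FDR of −117. The other 4 *Wtap*-BKO peaks lay nearer the 3′ end and had no Wtap flox/flox peak on them. They were chr4:43514951-43515191 (241 bases, log10 FDR −6.25), chr4:43515520-43515880 (361 bases, −13.4), chr4:43515940-43518418 (151 bases, −2.79) and chr4:43518628-43518808 (181 bases, −5.29). *Tpm2* thus had listed peaks at its 5′ part in both genotypes, and along the rest of the gene in the *Wtap*-BKO list only.

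*Acta1*, skeletal α-actin (ENSMUSG00000031972, minus strand of chromosome 8), had 1 peak of 3 blocks in each list over the same exons. The Wtap flox/flox peak, chr8:123893652-123894692, covered 149 bases with 3.0-fold enrichment and a log10 FDR of −2.94. The *Wtap*-BKO peak, chr8:123893593-123894721, covered 237 bases, all 149 included, with 7.02 and −39.3. The middle block was the same 90 bases in both, and the *Wtap*-BKO peak reached further at each end, with outer blocks of 117 and 30 bases against 58 and 1.

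Troponin has a calcium-binding subunit (C), an inhibitory subunit (I) and a subunit that holds tropomyosin (T), and all 4 troponin genes were listed in *Wtap*-BKO only. *Tnnt3*, fast troponin T (ENSMUSG00000061723, plus strand of chromosome 7), had a peak of 8 blocks near its 5′ end, chr7:142498836-142505297, with 210 exonic bases, a fold enrichment of 7.48 and a log10 FDR of −31.0. Its blocks included exons of 8, 14, 15 and 18 bases. A second peak of 8 blocks, chr7:142510686-142514152, covered 598 bases with 2.81 and −23.8. These were the strongest peaks among the genes listed in *Wtap*-BKO only. *Tnni2*, fast troponin I (ENSMUSG00000031097, plus strand of chromosome 7), had peaks at chr7:142443155-142443454 and chr7:142443544-142443753. Each covered 210 bases, and their log10 FDRs were −2.78 and −9.20. *Tnnt1*, slow troponin T (ENSMUSG00000064179, minus strand of chromosome 7), had a peak of 90 bases, chr7:4509111-4509633, with −2.29. *Tnnc2*, fast troponin C (ENSMUSG00000017300, minus strand of chromosome 2), had a peak of 297 bases, chr2:164777506-164778022, with −10.3. A *Wtap*-BKO peak of *Ube2c*, a ubiquitin-conjugating enzyme gene on the opposite strand, covered 218 of these bases with −9.13, so the *Tnnc2* peak has the same limit as that of *Mybph*. *Neb*, the ruler of the thin filament, had no peak.

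At the Z disc, *Tcap* (telethonin, which caps titin, ENSMUSG00000007877, plus strand of chromosome 11) was listed in both genotypes. Its Wtap flox/flox peak, chr11:98384657-98384835, covered 179 bases with a log10 FDR of −3.29. The *Wtap*-BKO peak on it, chr11:98384539-98384953, covered 415 bases with −32.0, and both centres lay 208 bp from the 3′ end. A further *Wtap*-BKO peak of 179 bases, chr11:98383811-98384184, lay near the 5′ end with −4.09. *Des*, desmin, the intermediate filament around Z discs (ENSMUSG00000026208, plus strand of chromosome 1), had a strong peak in both lists, 969 bp from the 3′ end. In Wtap flox/flox it was chr1:75367477-75367745 (269 bases, log10 FDR −17.6), and in *Wtap*-BKO it was chr1:75367447-75367775 (329 bases, −37.4), with all 269 bases shared. *Wtap*-BKO had a further *Des* peak of 180 bases at the 5′ end, chr1:75360329-75360508, with −3.32.

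*Ldb3* (a Z-disc adaptor, ENSMUSG00000021798, minus strand of chromosome 14) went against the other genes. Its Wtap flox/flox peak, chr14:34529086-34529296, covered 211 bases with a log10 FDR of −2.77, and its *Wtap*-BKO peak, chr14:34529057-34529146, covered 90 bases with −2.10. They shared 61 bases. *Ttn*, titin (ENSMUSG00000051747, minus strand of chromosome 2), had 2 short *Wtap*-BKO peaks in the last 3′ part of its span of 278578 bp. They were chr2:76708955-76709075 (121 bases, log10 FDR −4.62) and chr2:76711355-76711445 (91 bases, −2.72). *Xirp2* (an actin-binding protein of the cell junctions of muscle, ENSMUSG00000027022, plus strand of chromosome 2) had a *Wtap*-BKO peak of 121 bases, chr2:67525506-67525626, with −2.32. *Smpx* (a small muscle protein, ENSMUSG00000041476, plus strand of chromosome X) had one of 91 bases, chrX:157699179-157699269, with −1.54, stronger than 0.385% of its list. *Actn3*, the fast-fibre α-actinin, and *Myoz1*, a calcineurin-binding Z-disc protein, had no peak. Of the 8 genes of the Z disc and titin, 3 were listed in both genotypes, 3 in *Wtap*-BKO only and 2 in neither.

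Among the calcium-handling genes, *Atp2a1*, the calcium pump of fast fibres (ENSMUSG00000030730, minus strand of chromosome 7), had a control peak of 181 bases, chr7:126445948-126446546, with a log10 FDR of −4.77. The *Wtap*-BKO peak on it, chr7:126445888-126446098, covered 211 bases, shared 151 and had −9.75. Both lay at the 3′ end, and on both lay a peak of *Rabep2*, an endosomal gene on the opposite strand, sharing 179 bases in the control list and 211 in the knockout list. A further *Wtap*-BKO peak of 121 bases, chr7:126462988-126463108, reached past the 5′ end of the RefSeq gene, with −3.14 and no peak of another gene on it. *Casq1*, the calcium store protein of the reticulum (ENSMUSG00000007122, minus strand of chromosome 1), had a *Wtap*-BKO peak of 326 bases, chr1:172210189-172211958, with −12.4. *Pvalb*, the calcium buffer parvalbumin (ENSMUSG00000005716, minus strand of chromosome 15), had *Wtap*-BKO peaks of 209 and 150 bases. They were chr15:78191411-78191619 near its 3′ end, with −7.81, and chr15:78204093-78206341 near its 5′ end, with −5.53. *Cacng1*, a subunit of the calcium channel of the cell surface (ENSMUSG00000020722, minus strand of chromosome 11), had a *Wtap*-BKO peak of 150 bases, chr11:107703307-107703456, with −2.52. *Ryr1*, the release channel itself, had no peak. The pump was the only calcium-handling gene listed in both genotypes, and whether that shared peak belongs to *Atp2a1* or *Rabep2* cannot be told apart, as for *Mybph* and *Tnnc2*.

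Of the energy and oxygen genes, *Mb*, the oxygen-binding myoglobin (ENSMUSG00000018893, minus strand of chromosome 15), had a *Wtap*-BKO peak of 209 bases, chr15:77022498-77022706. Its fold enrichment of 36.0 exceeded 99.1% of the list, and the log10 FDR was −18.6. Myoglobin is also made by brown adipocytes. *Ckm*, the muscle creatine kinase, and *Eno3*, the muscle enolase, had no peak. Within the span of *Eno3* a peak of *Pfn1*, the profilin gene on the opposite strand, was listed in both genotypes with log10 FDRs of −81.2 and −207, and it was not assigned to *Eno3*.

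The strength of a peak was compared within its own list, because the fold enrichments of lists called separately share no scale. Rank here is the share of a list's peaks with a larger FDR than the peak, so that 100% would be the strongest. For 8 of the 9 genes with peaks in both lists, the strongest peak ranked higher in *Wtap*-BKO, where 51.2% of the 7409 gene symbols with peaks in both lists did. *Acta1* went from 16.4% of the Wtap flox/flox list to 90.6% of the *Wtap*-BKO list, *Tcap* from 20.7% to 88.1%, *Myl1* from 7.69% to 76.1% and *Myh4* from 3.86% to 61.4%. *Atp2a1* went from 35.3% to 63.0%. *Des* and *Tpm2* already ranked high in Wtap flox/flox, at 70.4% and 84.2%, and reached 90.0% and 98.1% in *Wtap*-BKO. *Mylpf* stayed low, at 6.34% and 8.60%, and *Ldb3* went the other way, from 13.9% to 5.32%. For 8 of the 9 genes peaks also covered more exonic bases in *Wtap*-BKO, against 42.1% of the 7409 symbols. Ranked by fold enrichment within each list, the same strongest peaks did not all rise. Those of *Tcap* (64.5% to 51.6%), *Tpm2* (99.3% to 66.6%), *Atp2a1* (32.6% to 6.12%) and *Ldb3* (82.1% to 78.3%) ranked lower in *Wtap*-BKO. Those of *Myh4*, *Myl1*, *Mylpf*, *Acta1* and *Des* ranked higher by fold enrichment too. These values describe 1 pool per genotype and come from the same lists that the genes were chosen from.

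**Figure D2:**
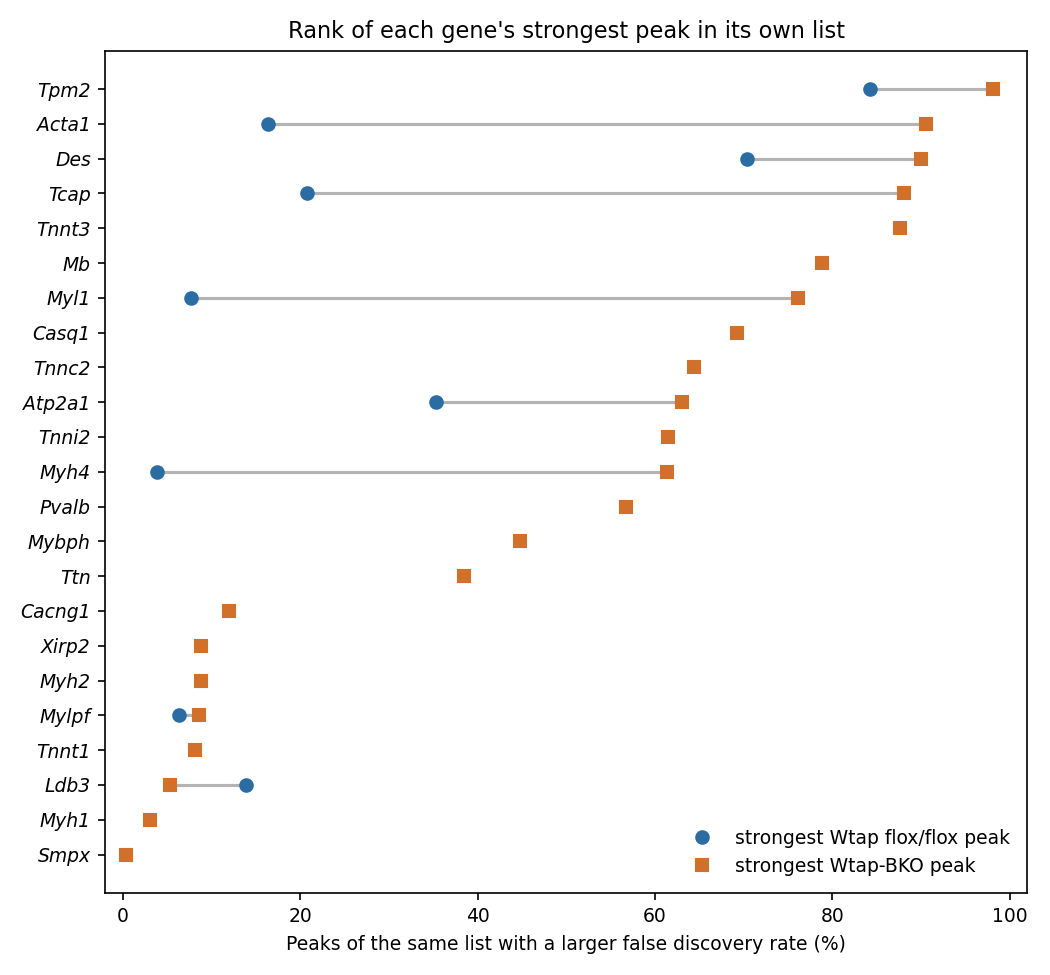
Rank of the strongest peak of each of 23 genes within its own list, as the percentage of the list's peaks with a larger FDR (horizontal axis), for Wtap flox/flox (blue circles) and *Wtap*-BKO (orange squares), joined by a line where a gene has both. *Acta1*, *Tcap*, *Myl1* and *Myh4* lie below 21% in the control list and above 61% in the *Wtap*-BKO list, and *Ldb3* is the only gene whose circle lies to the right of its square.

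The 14 genes listed in *Wtap*-BKO only were of unequal strength. By FDR, the strongest peaks of *Tnnt3* (87.6% of the list weaker), *Mb* (78.8%), *Casq1* (69.2%), *Tnnc2* (64.4%), *Tnni2* (61.5%) and *Pvalb* (56.7%) ranked in the upper part of the list. Those of *Mybph* (44.8%) and *Ttn* (38.5%) ranked somewhat below the middle. By fold enrichment, the same peaks of *Mb* (99.1%), *Ttn* (95.8%), *Tnni2* (73.5%) and *Tnnt3* (68.0%) ranked above the middle. Those of *Casq1* (35.3%), *Pvalb* (12.9%), *Tnnc2* (12.7%) and *Mybph* (6.61%) ranked below it. The peaks of *Tnnc2* and *Mybph* also share bases with a peak on the opposite strand. The other 6 genes, *Cacng1*, *Xirp2*, *Myh2*, *Tnnt1*, *Myh1* and *Smpx*, had 1 peak each with an FDR over 0.001, ranking between 0.385% and 11.9%. Their fold enrichments, from 7.58 to 13.7, were nevertheless higher than those of 68.2% to 86.3% of the list. Such peaks carry values that many others carry too. *Myh2* and *Xirp2* had the same p-value, FDR and fold enrichment as each other and as 117 further peaks, 119 in all, and *Cacng1* had values held by 121 peaks. Of the 35 *Wtap*-BKO peaks of the muscle genes, 8 (22.9%) had values held by at least 20 other peaks, against 10.7% of the whole list. They were the peaks of these 6 genes and both *Ttn* peaks. Among the 10 Wtap flox/flox peaks, those of *Tcap* and *Ldb3* did, as had 12.8% of that list.

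**Figure D3:**
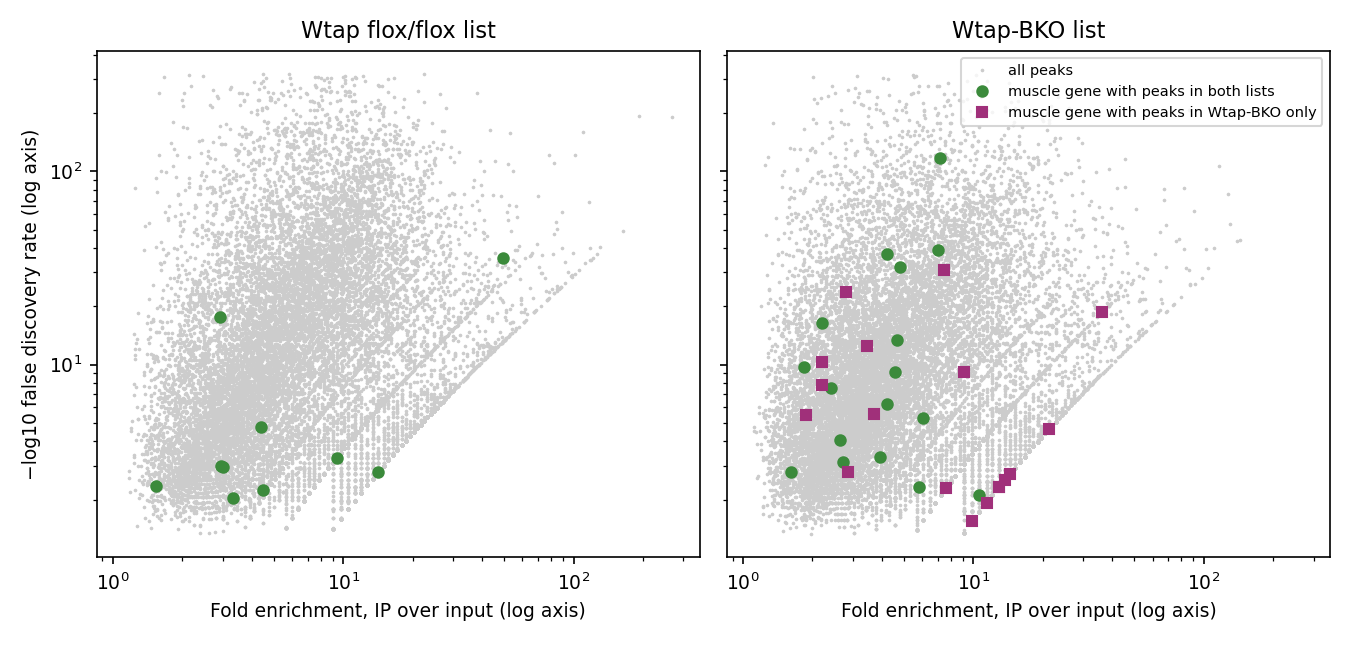
Fold enrichment of IP over input (horizontal, log axis) against −log10 FDR (vertical, log axis) for every listed peak (grey, peaks with an FDR listed as 0 are not drawn) and for the peaks of the muscle genes, in Wtap flox/flox (left) and *Wtap*-BKO (right). Green circles are genes with peaks in both lists and purple squares genes with peaks in *Wtap*-BKO only. *Tpm2* is the highest point at right (7.15, log10 FDR −117), *Mb* lies far to the right (36.0), and the weak peaks of *Smpx*, *Myh1*, *Myh2*, *Xirp2* and *Cacng1* sit on the lower edge of the cloud, where many peaks share the same values.

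Overlap of the lists was taken from exonic bases on the same strand, with 1 shared base as the minimum for calling a peak found in the other genotype. All 10 Wtap flox/flox peaks of the muscle genes were found in *Wtap*-BKO, against 67.8% of the Wtap flox/flox list. With at least 50% of bases required to be shared, 8 of the 10 were found. Of the 35 *Wtap*-BKO peaks, 9 were found in Wtap flox/flox, against 68.0% of the *Wtap*-BKO list, and 26 were not. Of these 26 peaks, 18 lay on the 14 genes without any Wtap flox/flox peak, and 8 were additional peaks of *Tpm2*, *Myh4*, *Tcap*, *Des* and *Atp2a1*. In 7 of the 10 Wtap flox/flox peaks, all bases lay under the *Wtap*-BKO peak. The exceptions were *Atp2a1* (83.4% of its bases), *Ldb3* (28.9%) and *Mylpf* (1.12%).

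Stricter thresholds changed which genes were counted. When an FDR under 1e-05 was required, 12 of the 14 genes left had peaks in *Wtap*-BKO only, as had 13.1% of the 7783 symbols left with a peak. Only *Des* and *Tpm2* stayed in both. With each list cut to its 10000 smallest p-values, so that the lists had equal length, 11 of 13 genes were in *Wtap*-BKO only, against 15.7% of the 7275 symbols left. Under both settings *Acta1*, *Atp2a1*, *Myh4*, *Myl1* and *Tcap* moved from the shared group to *Wtap*-BKO only, and *Mylpf*, *Ldb3*, *Myh1*, *Myh2*, *Ttn*, *Tnnt1*, *Xirp2*, *Smpx* and *Cacng1* had no peak left. *Mybph* was lost too with the shortened lists. Under an FDR of 1e-10, 7 of 9 genes were in *Wtap*-BKO only, against 12.7% of the 6027 symbols left. With the 5000 smallest p-values per list it was 6 of 7, against 20.1% of 4645 symbols.

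The muscle peaks were more often spliced than the lists as a whole. Peaks of 2 or more blocks made up 5 of the 10 Wtap flox/flox peaks, against 15.4% of that list, and 16 of the 35 *Wtap*-BKO peaks (45.7%), against 19.8%. *Tnnt3* had the most, with 8 blocks in each peak, followed by the *Tpm2* peak of 6. The median length of their peaks was 164.5 exonic bases in the Wtap flox/flox list and 209 in the *Wtap*-BKO list, and that of all peaks 240 and 210. Lengths of 89 to 91 bases, close to the shortest in the lists, were found for the control peaks of *Myl1* and *Mylpf* and for 6 *Wtap*-BKO peaks (*Myh1*, *Mylpf*, *Tnnt1*, *Ldb3*, *Smpx* and a *Ttn* peak).

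Along the genes, peak centres fell at both ends and between them. Stop codons and UTRs are not in the gene table used, so distances refer to the RefSeq gene ends of GRCm38.p6. Of the 34 *Wtap*-BKO peaks inside their RefSeq span, 9 (26.5%) had their centre within 1000 bp of the 3′ end and 5 (14.7%) within 1000 bp of the 5′ end, against 19.7% and 11.4% of the list. In Wtap flox/flox it was 3 of 10 at each end. Peaks within 1000 bp of the 3′ end were those of *Mybph*, *Tnnc2*, *Tnni2*, *Tcap* (both peaks), *Des*, *Cacng1*, *Atp2a1* and *Pvalb* in *Wtap*-BKO. *Tcap* is a short gene, and its peaks counted at both ends.

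**Figure D4:**
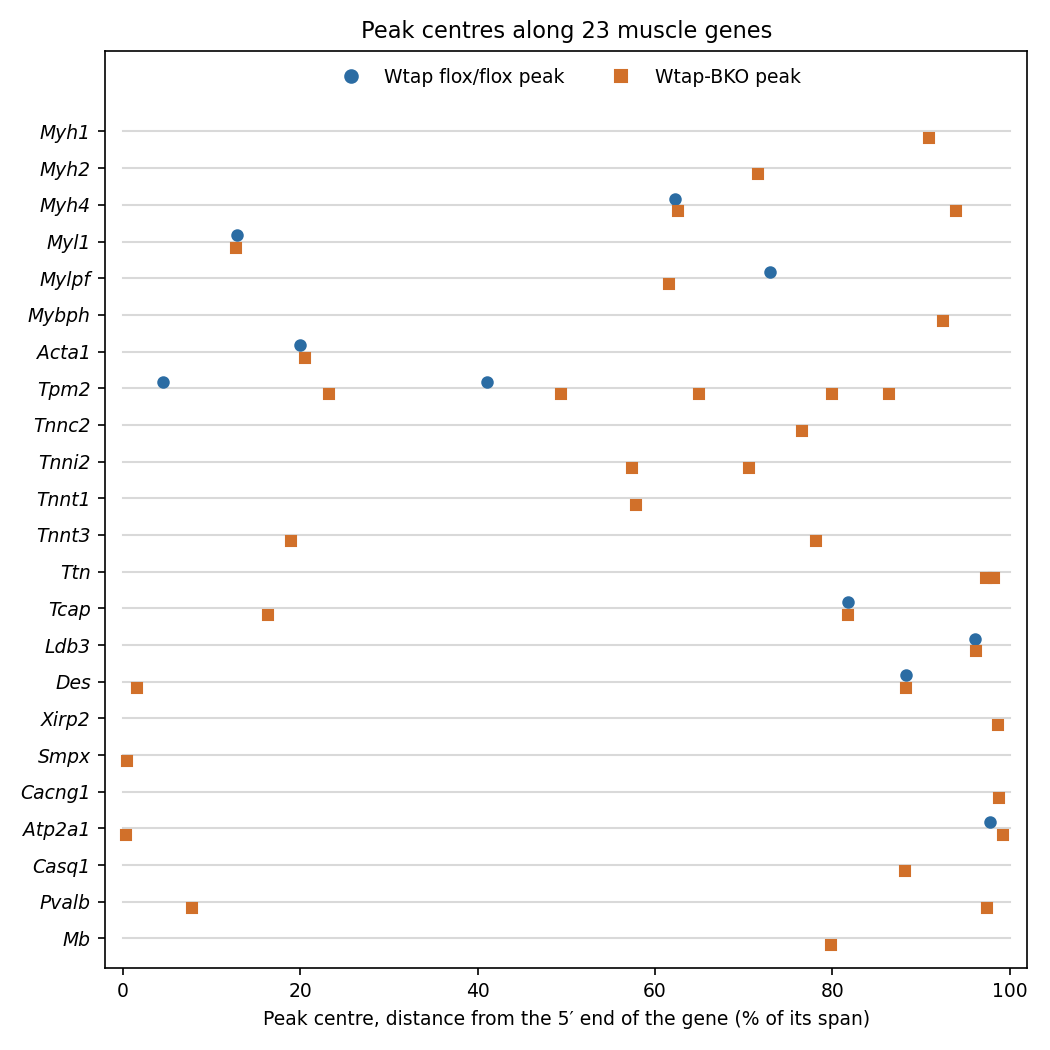
Centre of each listed peak as a percentage of the RefSeq gene span from the 5′ end (0) to the 3′ end (100) for 23 genes, in Wtap flox/flox (blue circles, above the line) and *Wtap*-BKO (orange squares, below). The span includes introns. *Ttn*, *Xirp2*, *Cacng1* and *Ldb3* have their peaks in the last 4% of the span, *Smpx* has its peak at the 5′ end, and the *Tpm2* squares run along most of the gene.

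Muscle genes outside the 30 were looked at in the same way. Of 41 other sarcomere and excitation-contraction genes, 19 had a peak, 10 in both lists, 9 in *Wtap*-BKO only and 0 in Wtap flox/flox only. Among the 9 were *Tmod4*, *Lmod2* and *Lmod3* (which cap or nucleate thin filaments), *Myl3* (the slow essential light chain), *Flnc* (filamin C), *Hrc* (a calcium-binding protein of the reticulum), *Klhl41* and *Pdlim3* (a Z-disc protein). Their strongest peaks had log10 FDRs from −1.74 in *Tmod4* to −8.15 in *Flnc*, which was thus weaker than *Tnnt3* or *Mb*. *Lmod2* had 4 *Wtap*-BKO peaks covering 782 bases. The 22 without a peak included, as named after their values were seen, the slow myosin *Myh7*, the developmental myosins *Myh3* and *Myh8*, the slow troponins *Tnnc1* and *Tnni1* and the slow light chain *Myl2*. The slow genes *Tnnt1* and *Myl3* did have *Wtap*-BKO peaks, and the fast-fibre genes *Mybpc2* and *Actn3* had none. No pattern by fibre type is therefore drawn from these names.

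The neighbouring lists differed in their counts. Of 12 muscle energy genes, 6 had a peak, 3 of them in both lists, with *Pfkm* and *Cox6a2* in *Wtap*-BKO only (log10 FDR −3.36 and −1.69) and *Phka1* in Wtap flox/flox only (−12.9). Of 10 myogenic regulators, 3 were in both lists, *Six4* was in Wtap flox/flox only (−4.03), and the other 6, among them *Myod1* and *Myog*, were not listed. Of 8 smooth muscle markers, 6 had peaks in each genotype, and *Acta2* was in *Wtap*-BKO only (−2.51). None (0) of 8 cardiac markers had a peak. *Elovl3* was the 1 gene of 15 brown adipocyte markers in Wtap flox/flox only (−4.01), and the other 14 were shared. Macrophage markers numbered 11, of which 5 were shared and 5 were *Wtap*-BKO only, the strongest being *Mrc1*, *Ly86* and *Ctss* (−6.98, −6.95 and −6.24). In numbers of peaks, the 30 muscle genes had 10 in the control list and 35 in the *Wtap*-BKO list, and the other sarcomere genes had 14 and 32. Macrophage markers had 9 and 25 peaks, smooth muscle markers 13 and 18, and brown adipocyte markers 43 and 40. The rank of the strongest peak was also higher in *Wtap*-BKO for 9 of the 10 shared genes of the other sarcomere list, all 6 shared smooth muscle markers and 4 of 5 shared macrophage markers, and for 5 of 14 shared brown adipocyte markers. With an FDR under 1e-10, chosen for these lists after seeing the data, 4 of 4 smooth muscle markers left with a peak were in *Wtap*-BKO only. So were 2 of 4 macrophage markers, 1 of 5 other sarcomere genes and 0 of 14 brown adipocyte markers, against 12.7% of the 6027 symbols left. The smooth muscle count depended on the threshold. It was 0 of 5 under 1e-05, 1 of 5 with the 10000 smallest p-values and 2 of 2 with the 5000 smallest. Higher ranks and listing in *Wtap*-BKO only were thus also found outside the 30 genes. How far the presence of muscle fibres or of these other cells in a pool takes part in the counts of the 30 genes was not tested.

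**Figure D5:**
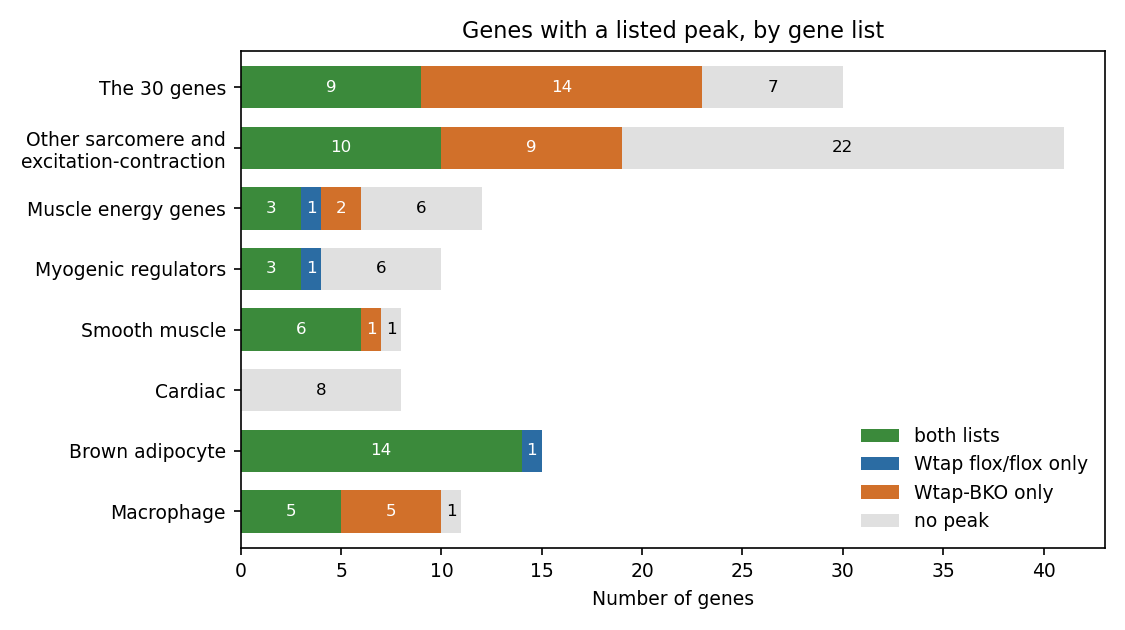
Number of genes with a peak in both lists (green), in Wtap flox/flox only (blue), in *Wtap*-BKO only (orange) or in neither (grey), for the 30 genes and 7 further gene lists. The 30 genes (14 orange, no blue) and the other sarcomere genes (9 orange, no blue) stand beside macrophage markers (5 orange), and brown adipocyte markers have 14 of 15 genes in both lists.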

How the data were processed

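MeRIP-seq of iBAT gave 1 pooled IP and 1 pooled input per genotype, with paired reads of 150 bp. Per the labels, the submitters' processing notes name fastp 0.19.11, BWA 0.7.12, HOMER 4.9.1 and the build GRCm38.p6. The methods name MACS2 as the peak caller, while the spliced blocks on Ensembl genes are the layout that the R package exomePeak writes, and this was not settled. The authors deposited 1 peak list per genotype, filtered at an FDR under 0.05. Its score column is the p-value of each peak as the authors deposited it, and further deposited score columns hold this p-value and the FDR on a log10 scale. The deposited fold enrichment is the IP to input ratio for that genotype, with its scaling not described in the sources used here. Another deposited column counts the blocks.

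Peaks were matched and counted with Python 3.11.15 and drawn with matplotlib 3.10.9. Positions are 1-based. The matching was tested on simulated data. All 30 symbols were found in the RefSeq gene table of GRCm38.p6. The genes and gene lists were chosen with earlier results of these data known. The alternatives tried were stricter FDRs, lists of equal length, other overlap rules, other ranks and other sets of genes. All 30 genes are named, as are the genes of other lists with a peak in 1 list only, at most 3 per list outside the sarcomere list. One gene of the sarcomere list is not reported here by name. *Cox8b* is in the muscle energy list and the brown adipocyte list. No genome sequence was used here, so no motif or peak sequence is given.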

Additional observations from a re-analysis of the deposited data

How the results depend on the processing

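No paired analysis was possible because each genotype is 1 pool, and no replicate could be left out. Of 69 alternative values, 40 stayed within 1.5 times the main value and 29 did not. Many of the 40 were counts of 0 that stayed 0, so the 40 overstate how stable the other values were. No muscle gene was in Wtap flox/flox only under any of the 9 settings tried. The settings that only took genes away could not have given one. The count in both lists went from 9 to 2 with an FDR under 1e-05, under 1e-10 or with the 10000 smallest p-values, and to 1 with the 5000 smallest. The count in *Wtap*-BKO only went from 14 to 7 of 9 under 1e-10, to 6 of 7 with the 5000 smallest and to 8 of 17 without the 6 genes with 1 weak peak. These 6 genes were all in *Wtap*-BKO only, so that last fall was fixed by the rule. *Mylpf* and *Ldb3*, whose peaks were weak in both lists, were kept. With the other sarcomere genes added, the count in *Wtap*-BKO only was 23 of 42, and 19 were in both. Removing *Myh1*, *Myh2* and *Myh4*, or *Atp2a1*, *Mybph* and *Tnnc2*, left 12 of 20. The settings with 5000 peaks, without the weak genes, with added genes and with 1e-10 for the other gene lists were chosen after seeing the data. Of the *Wtap*-BKO peaks, 9 were found in Wtap flox/flox, 5 with at least 50% of bases shared, 17 by gene symbol and 2 of 20 under 1e-05. Under 1e-05, 2 of 2 Wtap flox/flox peaks were found. The median rank of Wtap flox/flox peaks went from 16.5% to 26.5% by fold enrichment and to 36.1% among peaks of similar length. That of *Wtap*-BKO peaks went from 45.5% to 50.2% and to 47.7%, so the lists lay closest among peaks of similar length. The median length of Wtap flox/flox peaks went from 164.5 to 248.0 bases when introns were counted. In *Wtap*-BKO only, other sarcomere genes went from 9 to 4 with 10000 peaks, muscle energy genes from 2 to 0 with 10000 or 5000 peaks and under 1e-05 or 1e-10, and smooth muscle genes from 1 to 0 under 1e-05 but to 4 of 4 under 1e-10 and 2 of 2 with 5000 peaks. Other sarcomere genes were 1 of 5 under 1e-10, where 12.7% of all symbols left were, and 2 of 3 with 5000 peaks. Macrophage markers went from 5 of 10 to 2 of 4 under 1e-10 and 1 of 2 with 5000 peaks, and myogenic regulators from 0 of 4 to 1 of 2 with 5000 peaks. The cause of these moves was not tested beyond the smaller number of peaks left. Depth is unknown, so a gene without a peak is only not listed.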
